A study of Mus musculus with 8 samples.

Results

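The 9 genes described here are named factors of the neural crest, and each was found under its symbol among the 22558 genes of the deposited FPKM table. They were the SoxE factors Sox9 and Sox10, the transition factors Twist1, Snai1 and Snai2, the AP-2 factors Tcfap2a and Tcfap2b (now Tfap2a and Tfap2b), the ETS factor Ets1 and the neuregulin receptor gene Erbb3. Neural crest cells arise at the border of the neural plate, leave the neural tube by an epithelial-to-mesenchymal transition and form peripheral neurons, glia, pigment cells and facial mesenchyme. Border and specifier genes are expressed first, among them the AP-2 factors, and SoxE factors such as Sox9 and Sox10 follow, with Snai1, Snai2 and Twist1 acting in the transition itself. Apart from Sox10, most of these genes also serve other embryonic cells, so that Twist1, Snai1, Snai2 and Ets1 are made in mesoderm and Ets1 in endothelium as well.

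Libraries were made from R1 and R1/E mouse embryonic stem cells, kept on feeders and differentiated as embryoid bodies. Cells in which doxycycline induced overexpression of Oct6, the POU factor encoded by Pou3f1, were set beside control cells at days 2, 4 and 6, with 1 library per arm and day. The growth text names a serum-free neural differentiation, whereas the RNA sample titles carry the prefix fbs, which is not explained. Doxycycline appears in the titles of induced samples alone, but the treatment text can be read as covering both arms, and no label gives the line of either arm. Effects of Oct6, of the drug and of the line therefore cannot be told apart. At day 4, 1 Oct6 ChIP library and 1 input library came from Oct6-overexpressing cells. FPKM counts fragments scaled to transcript length and library size, so levels of different genes can be compared per length. In these bulk samples more cells of a type and more RNA per cell cannot be told apart. Depth, read from the steps of low FPKM values, was an estimated 23800000 to 51900000 fragments per library, with control day 4 the deepest. Pou3f1 had 312, 222 and 86.8 FPKM in the induced libraries of days 2, 4 and 6, against 64.3, 10.1 and 4.76 FPKM in control cells, which goes with the labels.

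The regulatory sequences that bear on these genes are shown first. The Oct6 peaks of the authors' list are all 133 bases wide, and the 3 below are the nearest to Tcfap2b, Twist1 and Sox9, the genes with a peak within 50 kb of an annotated start. Capitals mark octamers (ATGCNAAT, where N is any base) and, in the Sox9 peak, a SOX-octamer composite, CATTGT followed after 1 more base by ATGCAAAT. In the Tcfap2b peak they mark an unbroken tetranucleotide repeat of 20 bases, after which the repeat goes on with mismatches. Sequences are from mm9, plus strand, at chr1:19196548-19196680 for Tcfap2b, chr12:34659449-34659581 for Twist1 and chr11:112672504-112672636 for Sox9.
Tcfap2b peak: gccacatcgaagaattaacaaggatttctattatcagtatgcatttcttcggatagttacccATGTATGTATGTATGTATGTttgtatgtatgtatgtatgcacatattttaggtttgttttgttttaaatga
Twist1 peak: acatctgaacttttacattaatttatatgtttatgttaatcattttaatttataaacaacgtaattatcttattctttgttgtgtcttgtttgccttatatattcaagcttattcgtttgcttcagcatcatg
Sox9 peak: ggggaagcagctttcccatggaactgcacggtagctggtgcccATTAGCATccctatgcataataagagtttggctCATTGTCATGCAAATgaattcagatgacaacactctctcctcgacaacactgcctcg
The RefSeq promoters of both AP-2 genes (GRCm38.p6, mostly upstream of a start) are shown because these genes had the same direction in every comparison between the arms. They lie at chr13:40733746-40734045, minus strand, for one of the starts of Tfap2a, and at chr1:19211804-19212103, plus strand, for Tfap2b. Capitals again mark ATGCNAAT.
Tcfap2a promoter: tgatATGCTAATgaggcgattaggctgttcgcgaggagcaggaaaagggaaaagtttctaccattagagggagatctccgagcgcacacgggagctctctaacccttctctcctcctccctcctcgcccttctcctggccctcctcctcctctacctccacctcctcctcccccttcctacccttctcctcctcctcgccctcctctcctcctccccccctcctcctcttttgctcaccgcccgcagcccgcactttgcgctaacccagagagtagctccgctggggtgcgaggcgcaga
Tcfap2b promoter: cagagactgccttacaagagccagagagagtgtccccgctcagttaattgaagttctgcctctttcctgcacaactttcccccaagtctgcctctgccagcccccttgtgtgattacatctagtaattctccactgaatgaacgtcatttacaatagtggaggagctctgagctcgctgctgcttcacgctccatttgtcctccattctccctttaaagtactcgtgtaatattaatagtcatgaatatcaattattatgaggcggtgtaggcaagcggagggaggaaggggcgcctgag

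Both AP-2 factors had more transcript in induced than in control cells on every day, and they were the only ones of the 9 at least 2-fold higher at day 6. Tcfap2a, which acts at the neural plate border and in surface ectoderm, had 1.21, 2.12 and 4.43 FPKM in the induced libraries of days 2, 4 and 6, against 0.419, 0.653 and 1.04 FPKM in control cells. Every induced library lay above every control library. The differences of log2(FPKM + 1) were 0.64, 0.91 and 1.41, and limma's day-blocked fit gave a mean of 0.99 with a standard error of 0.22 and a 95% interval of 0.43 to 1.55. The Benjamini-Hochberg adjusted p over all 13661 genes tested was 0.144, so the difference did not pass. Unadjusted, its p of 0.00591 was under 0.05, as was that of 21% of all genes tested. This fit sets the mean difference against its spread between days, since no culture was repeated.

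Tcfap2b, an AP-2 factor of the border, the dorsal neural tube and sympathetic neurons, had 0.0582, 0.699 and 2.66 FPKM in induced cells, against 0.00581, 0.0208 and 0.0824 FPKM in control cells. The day 2 value of the control corresponds to an estimated 1 fragment and that of the induced library to 10, so a ratio at that day is poorly defined, while day 6 rests on an estimated 384 fragments in induced and 13 in control cells. On each day the induced library was the higher, but induced day 2 lay below control day 6. The log2 differences were 0.07, 0.73 and 1.76, with a limma mean of 0.86 ± 0.36 (SE) and an adjusted p of 0.256. The difference grew by 0.42 per day in a limma fit of the day trend, with an adjusted p of 0.284. Across the 6 libraries Tcfap2a and Tcfap2b followed each other with a Pearson r of 0.96, the highest among the pairs of the 8 genes that reached 1 FPKM.

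Between the arms neuron markers shared the direction of both genes. Of the 10 markers 9, 10 and 9 were higher in the induced libraries of the 3 days. Their summed FPKM was 166, 135 and 155 in induced cells, against 83.6, 69.1 and 51.1 in control cells. Within each arm that sum was lower at day 6 than at day 2, while both AP-2 genes were higher. Stmn2 made up most of the day 2 sums and fell by day 6, from 86.7 to 48.5 FPKM (induced) and from 63.6 to 19.1 FPKM (control). Over that time 4 neuron markers rose at least 2-fold in the induced arm and 0 fell, with a list median of 0.74 in log2. In the control arm 2 rose and 1, Stmn2, fell, with a median of 0.03. Of the 10 neural progenitor markers 8, 8 and 10 were higher in the induced libraries of the 3 days. The part of these cells in the AP-2 values was not tested.

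The other AP-2 genes were looked at because they share the family's DNA-binding domain. Tcfap2c, which is also active in trophoblast and germ cells, was the most abundant, with 4.84, 10.5 and 7.40 FPKM in induced and 4.37, 8.48 and 4.16 FPKM in control cells, and its log2 differences of 0.12, 0.28 and 0.70 stayed under 2-fold. It was named after its values were seen. Tcfap2d and Tcfap2e stayed below 1 FPKM in every library.

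**Figure D1:**
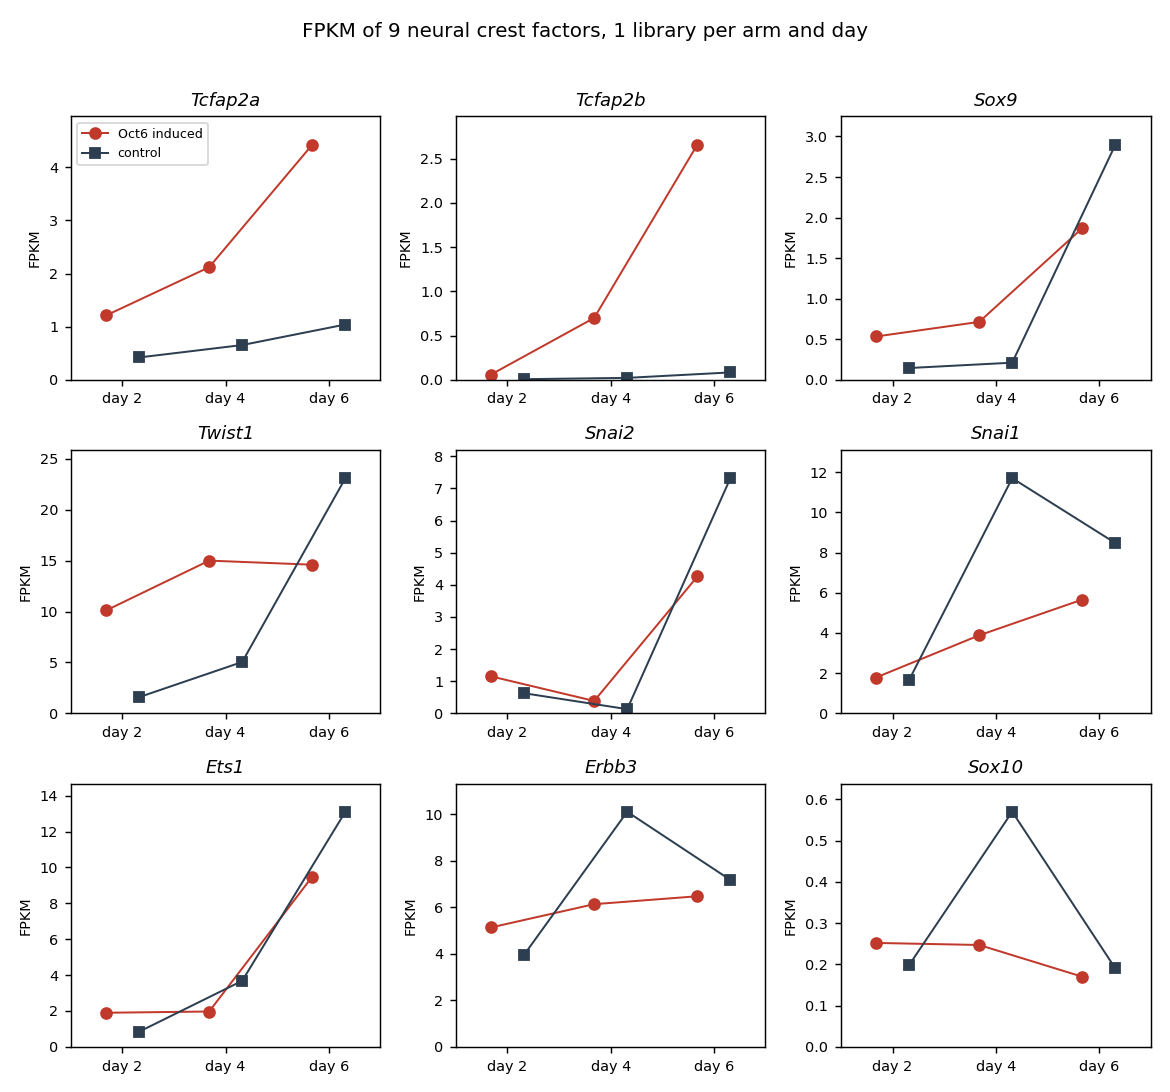
FPKM of the 9 genes (vertical axes, each from 0) at days 2, 4 and 6, with induced libraries as red circles to the left and control libraries as dark squares to the right. Each point is 1 library; Tcfap2a and Tcfap2b are higher in induced cells on each day, while Twist1 reaches 23.1 FPKM in control and 14.6 FPKM in induced cells at day 6.

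Twist1, a basic helix-loop-helix factor of mesenchyme, had the largest difference among the 9 in log2(FPKM + 1), whereas with a pseudocount of 0.1 that of Tcfap2b at day 6, 3.92, exceeded its 2.60 at day 2. It had 10.1, 15 and 14.6 FPKM in the induced libraries of days 2, 4 and 6, against 1.58, 5.04 and 23.1 FPKM in control cells. The induced libraries were the higher at days 2 and 4 and the control library at day 6, so the arms overlap over the days. Within the induced arm the highest value was 1.49 times the lowest, within the control arm 14.6 times. The log2 differences were 2.11, 1.41 and -0.63, and the limma mean of 0.96 ± 0.53 (SE) had an adjusted p of 0.344. The trend of the difference was -0.68 per day, with a 95% interval of -0.97 to -0.40, an unadjusted p of 0.00168 and a limma adjusted p of 0.169. Twist2, its paralogue, had 0.548, 0.307 and 4.63 FPKM in induced and 0.473, 0.450 and 7.56 FPKM in control cells, below 1 FPKM in both arms until day 6.

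Markers of fibroblasts, a possible remnant of the feeder layer, shared the direction of Twist1 between the arms on each day. Of the 9 genes of that list, 8 were higher in the induced library of day 2, 6 in that of day 4 and 1 in that of day 6. Their summed FPKM was 98.9, 42.6 and 45.9 in induced cells, against 12.3, 10.2 and 124 in control cells. Col1a2 alone made up most of it at day 2, with 80.2 FPKM in induced and 1.76 FPKM in control cells, and without that gene the sums were 18.8, 12.2 and 34.7 in induced and 10.5, 9.23 and 114 in control cells. In induced cells both sums were lower and Twist1 was higher at day 4 than at day 2. Over that step 1 of the 9 markers, Postn, was at least 2-fold higher and 2 were lower, beside 2.73% and 2.36% of all genes. The list includes Twist2. None of the 9 fibroblast markers was listed at 0 in any library. Their part in the Twist1 values was not tested.

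Sox9, a SoxE factor of crest specification that is also active in endoderm and neural stem cells, had 0.533, 0.713 and 1.87 FPKM in induced cells, against 0.144, 0.210 and 2.90 FPKM in control cells. The order turned between day 4 and day 6, as for Twist1. Its differences of log2(FPKM + 1) were 0.42, 0.50 and -0.45. The FPKM ratios of induced over control at days 2 and 4 were 3.69 and 3.40, and with a pseudocount of 0.1 those differences were 1.37 and 1.39. Only the day 6 pair passed the filter of 1 FPKM in either library, and days 2 and 4 rest on an estimated 61 and 78 fragments in induced and 21 and 45 in control cells. The 10 endoderm markers, of a tissue that also makes Sox9, summed to 10.4, 59.8 and 108 FPKM in induced cells, against 24.6, 201 and 263 FPKM in control cells, and 6, 10 and 8 of them were lower in induced cells; their part in the Sox9 values was not tested.

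Snai2, the zinc finger repressor also called Slug, had 1.15, 0.384 and 4.26 FPKM in induced cells, against 0.625, 0.128 and 7.32 FPKM in control cells. Both arms were lowest at day 4 and highest at day 6, the induced library being the higher at days 2 and 4 and the control library at day 6. The day 4 values rest on an estimated 21 fragments in induced and 13 in control cells. The log2 differences were 0.40, 0.30 and -0.66, with a limma mean of 0.01 ± 0.27 (SE, adjusted p 0.981). The pairs Sox9 with Snai2 and Sox9 with Ets1 had Pearson r of 0.94 and 0.90 over the 6 libraries, which share their days and arms.

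Sox10, the SoxE factor that marks migrating crest and its glia, stayed low throughout. It had 0.252, 0.247 and 0.170 FPKM in induced cells, against 0.198, 0.570 and 0.190 FPKM in control cells. No library reached 1 FPKM, the highest value, of control day 4, resting on an estimated 80 fragments, and the gene therefore did not enter the tests. The arms overlap.

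Snai1, a zinc finger repressor of E-cadherin active in gastrulating mesoderm and in crest, was lower in induced cells at day 4. It had 1.78, 3.88 and 5.66 FPKM in induced cells, against 1.65, 11.7 and 8.47 FPKM in control cells. The arms were close at day 2 and the control library was the higher at days 4 and 6. The log2 differences were 0.07, -1.38 and -0.51, and the day 2 value turned to -0.08 with median ratio scaling and to -0.38 with quantile normalisation. The limma mean was -0.61 ± 0.30 (SE), with an adjusted p of 0.304.

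Ets1, which serves cranial crest as well as endothelium and blood, had 1.90, 1.97 and 9.49 FPKM in induced cells, against 0.841, 3.68 and 13.1 FPKM in control cells. The induced library was the higher at day 2 and the lower at days 4 and 6. Its log2 differences of 0.66, -0.66 and -0.42 stayed under 2-fold, and the limma mean was -0.14 ± 0.29 (SE, adjusted p 0.799). Its relatives Ets2, Erg and Fli1 had 6.39, 1.15 and 1.76 FPKM in induced cells at day 6, against 12.6, 2.62 and 2.81 FPKM in control cells.

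Erbb3, a receptor that needs ErbB2 as its partner and takes neuregulin signals in crest-derived glia, had 5.13, 6.13 and 6.47 FPKM in induced cells, against 3.95, 10.1 and 7.17 FPKM in control cells. It was the least variable of the 9, with 2.55 times between its highest and lowest library. The log2 differences were 0.31, -0.64 and -0.13; with quantile normalisation the day 2 value turned to -0.08, and the limma adjusted p was 0.703. Erbb2 had 5.16, 7.54 and 8.94 FPKM in induced cells, against 2.03, 7.50 and 10.4 FPKM in control cells, a log2 difference of 1.02 at day 2. The ligand gene Nrg1 had 1.41, 0.928 and 0.935 FPKM in induced and 1.58, 0.726 and 2.13 FPKM in control cells.

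Marker lists of 2 cell types that share Snai1, Ets1 and Twist1 were lower in induced cells at days 4 and 6. Of 15 mesoderm markers 12 were lower in the induced library of day 4 and 10 in that of day 6, and their summed FPKM was 15.7, 246 and 162 in induced cells, against 11.9, 395 and 201 in control cells at days 2, 4 and 6. Mesp1 and Msgn1 were listed at 0 in some library. Of 10 endothelium and blood markers 9, 7 and 10 had lower values in induced cells on the 3 days, with sums of 8.61, 8.01 and 38.3, against 16, 15.3 and 72.0 in control cells. Non-neural ectoderm, where AP-2 factors are also made, gave sums of 34.4, 108 and 402 in induced cells, against 46.0, 383 and 598 in control cells, with 5, 6 and 8 of its 10 markers lower. Krt8 and Krt18 made up most of the sums at days 4 and 6, and without them, a step added after seeing the data, the other 8 summed to 18.3, 19.8 and 19.4 FPKM in induced cells, against 29.8, 19.8 and 18.7 FPKM in control cells. That list holds Tcfap2c and shares Gata3 and Dlx3 with the border list. Its epidermal markers Krt5, Krt14 and Trp63 stayed below 1 FPKM. The part of these cell types in the values of the 9 genes was not tested.

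**Figure D2:**
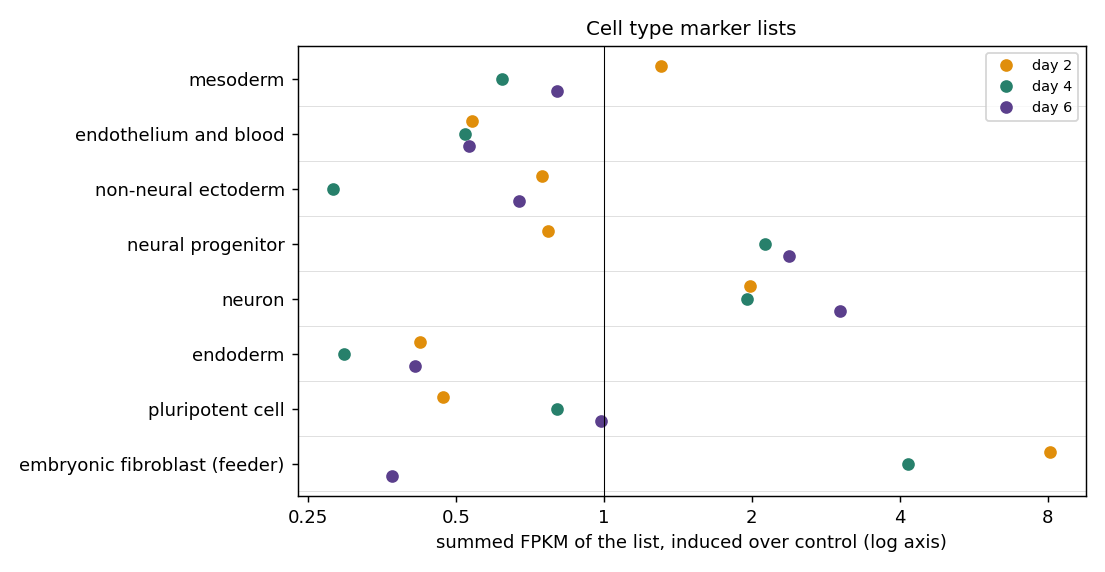
Summed FPKM of each cell type marker list in induced over control cells (horizontal log axis), 1 point per day. The fibroblast list lies at 8.07 and 4.16 at days 2 and 4 and at 0.371 at day 6, and the endothelium and blood list between 0.523 and 0.540 on the 3 days.

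Counted over the list, 1 of the 9 genes, Twist1, was at least 2-fold higher in induced cells at day 2, beside 9.72% of all genes tested, and 0 were 2-fold lower, beside 1.83%. A gene counted as changed when its FPKM was 1 or more in either library and log2(FPKM + 1) differed by at least 1, and 6 of the 9 genes passed that filter at day 2. At day 4, where 5 genes passed it, Twist1 was higher beside 6.09% of all genes and Snai1 lower beside 2.11%. At day 6, where 8 genes passed it, Tcfap2a and Tcfap2b were higher beside 3.37% of all genes and 0 of the 9 were lower, beside 2.1%. The median differences over all 9 genes were 0.40, 0.30 and -0.42, against 0.17, 0.10 and 0.06 over all genes tested. Signs were positive for 9 of 9 genes at day 2, 5 of 9 at day 4 and 2 of 9 at day 6, but at day 2 those of Snai1, Erbb3 and Sox10 (then -0.07) turned under quantile normalisation. Scaling the libraries to a common median ratio moved the median difference of all genes by -0.20 at day 2, -0.13 at day 4 and -0.08 at day 6.

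Over the 3 days limma called 0 of the 8 genes tested after adjustment, and 3 of all 13661 genes, or 0.022%. Without adjustment 1 of the 8, Tcfap2a, had a p under 0.05. In the fit of the day trend 0 genes of the whole table were called, while Twist1 and Tcfap2b were under 0.05 unadjusted, beside 13.1% of all genes. With 1 library per arm on each of 3 days, exchanging the arms within days, an exact permutation test, could not go below a two-sided p of 0.25.

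**Figure D3:**
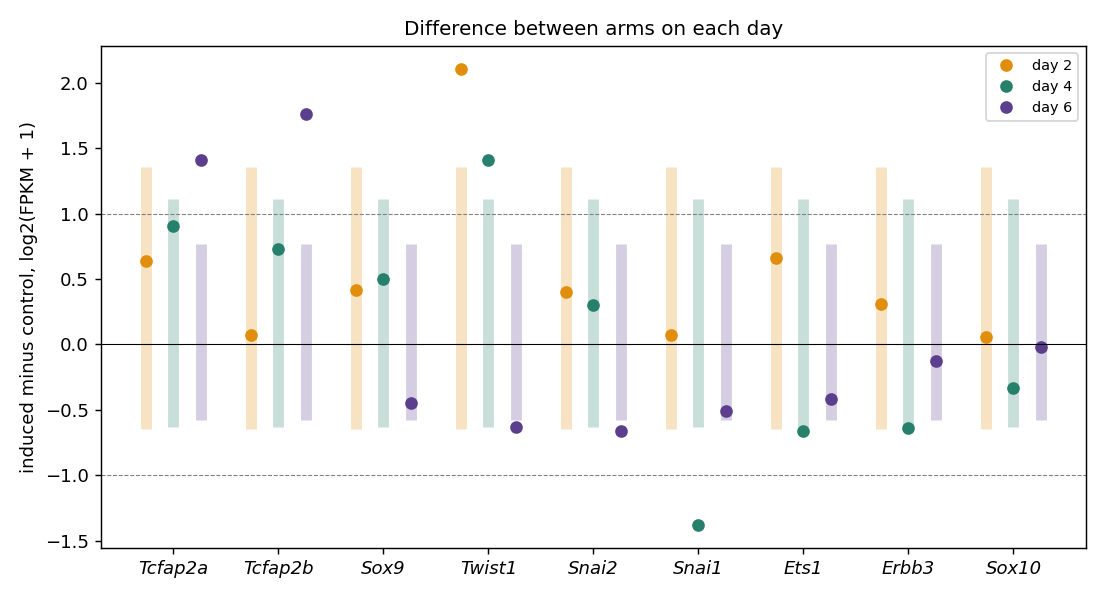
Induced minus control in log2(FPKM + 1) (vertical axis) for each gene, 1 point per day, over bars that span the 5th to 95th percentile of all genes tested that day. Twist1 lies at 2.11 and 1.41 at days 2 and 4, Tcfap2a and Tcfap2b at 1.41 and 1.76 at day 6 and Snai1 at -1.38 at day 4; dashed lines mark 2-fold.

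Over time the genes differed in how far they moved within each arm. In control cells 5 of the 9, Sox9, Twist1, Snai1, Snai2 and Ets1, were at least 2-fold higher at day 6 than at day 2, beside 17.2% of all genes tested, and 0 were lower, beside 6.73%. The log2 differences of those 5 were between 1.77 for Sox9 and 3.22 for Twist1. In induced cells 5 were higher at day 6 than at day 2, namely Snai1, Snai2, Tcfap2a, Tcfap2b and Ets1, beside 7.22% of all genes, and 0 were lower, beside 5.35%, with differences between 1.26 for Snai1 and 1.85 for Ets1. Twist1 differed by 0.49 and Sox9 by 0.90 in induced cells over that time, and with a pseudocount of 0.1 Sox9 passed 2-fold at 1.63. Tcfap2a and Tcfap2b differed by 0.53 and 0.11 in control cells, where Tcfap2a passed 2-fold at 1.14 with that pseudocount. Between day 2 and day 4 Twist1, Snai1, Ets1 and Erbb3 were 2-fold higher in control cells at the later day, beside 9.63% of all genes, and 0 were lower, beside 4.65%. Between the same days 0 of the 9 were higher in induced cells, beside 2.73%, or lower, beside 2.36%. From day 4 to day 6 Sox9, Twist1, Snai2 and Ets1 were 2-fold higher in control cells, beside 6.15% of all genes, and 0 lower, beside 2.97%. Over that step Snai2, Tcfap2b and Ets1 were 2-fold higher in induced cells, beside 2.98%, and 0 lower, beside 2.1%. These comparisons share libraries with those between the arms.

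The genes most like each in pattern over the 6 libraries, among 5537 genes that reached 1 FPKM and ranged over at least 1 on the log2 scale, differed from one to the next. Tcfap2a was nearest to Celf3 (Pearson r 0.998) and Pcdhb11 (0.996), and Tcfap2b to 2610100L16Rik (0.9995) and Nhlh2 (0.997). Nhlh2, a neuronal basic helix-loop-helix factor, had 0.118, 0.630 and 3 FPKM in induced cells, against 0.0211, 0.00701 and 0.0402 FPKM in control cells. Twist1 was nearest to Hipk3 (0.997) and Il10rb (0.995), Sox9 to Igsf11 (0.998) and 4933436C20Rik (0.996), and Snai2 to Loxl1 (0.987) and Spns2 (0.985). Snai1 was nearest to Ddit4 (0.998) and Bnip3 (0.997), both known as hypoxia-induced genes. Ddit4 had 28.0, 59.9 and 78.7 FPKM in induced cells, against 29.3, 167 and 117 FPKM in control cells. Ets1 was nearest to Rdx (0.993) and Rgl1 (0.992), and Erbb3 to Fam110c (0.984) and St6galnac4 (0.981). These values describe 6 libraries that share days and arms.

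Around the 9 genes, the neural plate border list held the most genes that were higher in induced cells at day 6 among 6 related lists. It shares Zic1 with the neural progenitor markers, 10 of 10 of which were higher in induced cells at day 6; their part in these values was not tested. Of the 13 border genes 8, 10 and 11 passed the filter of 1 FPKM at days 2, 4 and 6. At least 2-fold higher were 3, 4 and 5, and 0, 1 and 1 were lower. Of all genes tested 9.72%, 6.09% and 3.37% were higher and 1.83%, 2.11% and 2.1% lower, also beside the lists that follow. Medians of the border list, 0.29, 0.12 and 0.23, lay near those of all genes. Gbx2, a homeobox factor also of naive stem cells, had 25.3, 9.28 and 4.05 FPKM in induced cells, against 11.9, 0.483 and 1.25 FPKM in control cells. Zic1 had 0.396, 4.39 and 9.13 FPKM in induced cells, against 0.207, 0.139 and 1.11 FPKM in control cells. Dlx5 had 3.91, 3.02 and 2.07 FPKM in induced cells, against 0.188, 0.0148 and 0.329 FPKM in control cells, with a limma mean of 1.75 and an adjusted p of 0.0963. Pax3, the paired factor that acts with AP-2 at the border and was named after its values were seen, had 0.531, 2.45 and 6.32 FPKM in induced cells, against 0.163, 0.0355 and 0.854 FPKM in control cells. Pax7 stayed below 1 FPKM.

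Of 10 other crest factors 2 were higher and 3 lower at day 2, 4 higher and 1 lower at day 4, and none differed 2-fold at day 6. The filter of 1 FPKM was passed by 9 of them at day 2 and by all 10 at days 4 and 6. Foxd3, a forkhead factor of early crest that is also a factor of stem cells and epiblast, had 4.75, 2.49 and 0.824 FPKM in induced cells, against 31.4, 6.54 and 1.64 FPKM in control cells. Id2, an inhibitor of basic helix-loop-helix factors, had 96.8, 62.8 and 121 FPKM in induced cells, against 27.8, 8.19 and 79.8 FPKM in control cells. Lmo4, a LIM-only cofactor, had 98.6, 90.6 and 50.1 FPKM in induced cells, against 22.1, 17.2 and 33.9 FPKM in control cells. The 10 markers of pluripotent cells, where Foxd3 is also made, summed to 900, 916 and 367 FPKM in induced cells, against 1910, 1140 and 371 FPKM in control cells, with 7, 5 and 3 of them lower, and their part was not tested. Foxd3 had the lower and the other 2 the higher values in induced cells on each day.

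Of 24 genes of migrating crest and its derivatives 13, 13 and 15 passed the filter of 1 FPKM on the 3 days. Higher were 8, 7 and 2, beside 9.72%, 6.09% and 3.37% of all genes tested. Lower were 0, 0 and 2, beside 1.83%, 2.11% and 2.1%. Cdh11, a mesenchymal cadherin, had 42.1, 33.1 and 39.1 FPKM in induced cells, against 1.25, 8 and 25.2 FPKM in control cells. Crabp1, a retinoic acid binding protein of crest and hindbrain, had 21.8, 85.4 and 134 FPKM in induced cells, against 6.46, 6.11 and 33.8 FPKM in control cells. Fabp7, of radial glia and Schwann cell precursors, had 4.21, 16.6 and 58.2 FPKM in induced cells, against 0.418, 2.03 and 2.31 FPKM in control cells. Of the 10 neural progenitor markers, which include Fabp7, 8, 8 and 10 were higher in induced cells on the 3 days. They summed to 116, 123 and 134 FPKM in induced cells, against 150, 57.9 and 56.5 FPKM in control cells. At day 2 that sum was lower in induced cells, although 8 of the 10 markers were higher. Sox2 made up most of the sum on that day, with 66.7 FPKM in induced and 135 FPKM in control cells. Fabp7 itself gave 58.2 of the 134 FPKM at day 6. Cdh11 had log2 differences of 4.26, 1.92 and 0.62, and the fibroblast markers given beside Twist1 had summed ratios of 8.07, 4.16 and 0.371. The 2 thus shared a direction at days 2 and 4 and went opposite ways at day 6. The part of these cell types was not tested. The genes Cdh7, Ret, Foxs1 and Dct, of migrating crest, enteric neurons, pericytes and pigment cells, stayed below 1 FPKM in every library, and Dct was listed at 0 in all 6.

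All 12 effectors of the epithelial-to-mesenchymal transition passed the filter of 1 FPKM on each day. Of these 5, 3 and 0 were higher and 0, 2 and 0 lower. The list holds both epithelial and mesenchymal genes, which a transition moves in opposite directions. At day 4 the higher genes were Zeb1, Zeb2 and Vim, and the lower were the epithelial Cdh1 and Cldn7. Zeb2 had 8.04, 6.22 and 8.54 FPKM in induced cells, against 0.407, 1.64 and 4.58 FPKM in control cells. Zeb1, a repressor of the same family, had 3.68, 3.91 and 7.02 FPKM in induced cells, against 1.73, 0.587 and 6.57 FPKM in control cells. Cdh1, the gene of E-cadherin and a known target of Snail and Zeb repressors, had 78.8, 53.7 and 57.9 FPKM in induced cells, against 124, 132 and 91.0 FPKM in control cells, and was named after its values were seen. Fn1, the fibronectin gene, had 178, 88.0 and 112 FPKM in induced cells, against 60.9, 116 and 147 FPKM in control cells. Zeb1 and Zeb2 were the higher and Cdh1 the lower in induced cells on each day, while Fn1 turned after day 2. Of 9 fibroblast markers 8, 6 and 1 were higher on the 3 days, with summed ratios of 8.07, 4.16 and 0.371. The medians of the transition list, which pool its epithelial and mesenchymal genes, were 0.76, -0.13 and -0.46. The matrix genes Mmp2 and Sparc, named after their values were seen, had log2 differences of 1.32, 0.31 and -0.94 and of 1.13, -0.06 and -0.81. The part of fibroblasts in these values was not tested.

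Of 11 inducing signals 1, 0 and 1 were higher and 0, 2 and 1 lower. On the 3 days 7, 8 and 10 of the 11 passed the filter of 1 FPKM. Bmp7 had 1.15, 3.79 and 5.01 FPKM in induced cells, against 0.341, 8.11 and 15 FPKM in control cells. Bmp2 had 0.645, 1.15 and 6.59 FPKM in induced cells, against 0.162, 3.82 and 9.71 FPKM in control cells, and Fgf8 had 46.0 against 102 FPKM at day 4. Mesoderm and endoderm markers moved with these signals at day 4, when 12 of 15 and 10 of 10 were lower in induced cells, and their part was not tested. Wnt1, of the dorsal neural tube, stayed below 1 FPKM. Among 15 relatives of the 9 genes, of which 7, 6 and 9 passed that filter, Sox6 and Erbb2 were higher at day 2. Sox6 was higher at day 4 and none at day 6, with 0 lower throughout. Sox6, a SoxD factor, had 2.81, 2.16 and 1.16 FPKM in induced cells, against 0.0587, 0.0810 and 1.39 FPKM in control cells. In the limma fit over the 3 days 0 of the 72 genes of these 6 lists that were tested passed after adjustment. Unadjusted, 18 higher and 7 lower genes had a p under 0.05, or 34.7% of the 72, beside 2225 higher and 645 lower of all 13661 genes, or 21%.

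**Figure D4:**
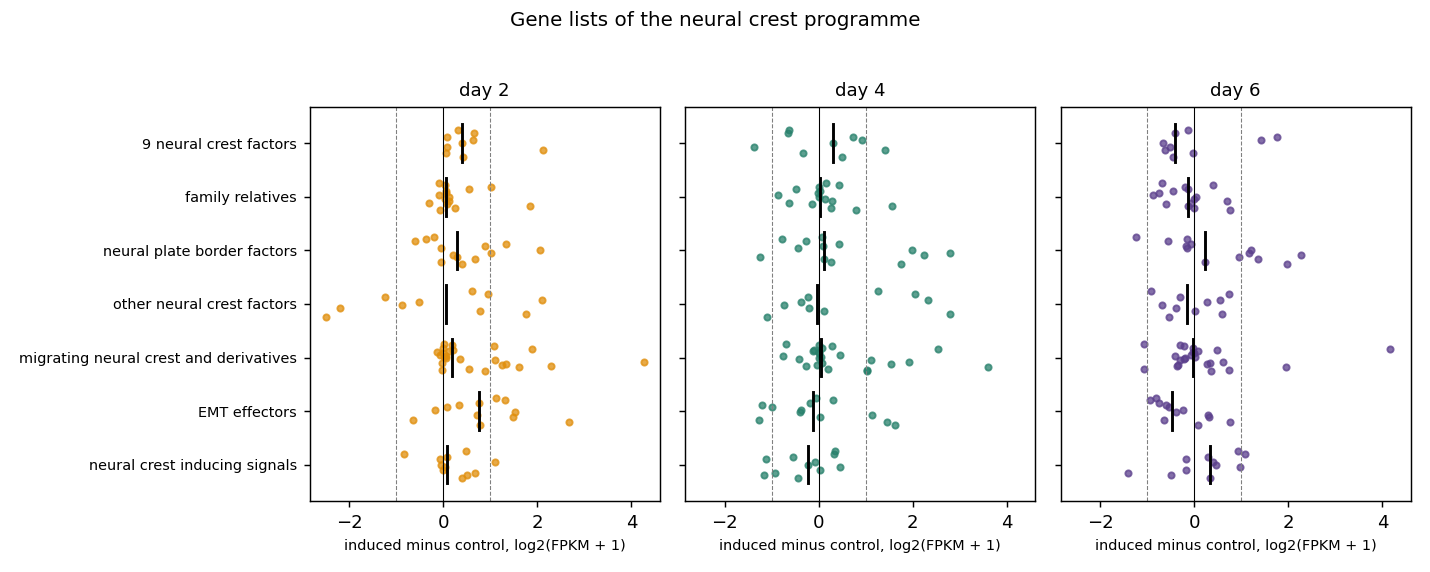
Induced minus control in log2(FPKM + 1) (horizontal axes) for each gene of 7 lists at days 2, 4 and 6, 1 point per gene, with black bars at list medians and dashed lines at 2-fold. The medians of the 9 neural crest factors lie at 0.40, 0.30 and -0.42, and single genes such as Cdh11 at 4.26 at day 2 lie far from the medians of their lists.

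Oct6 binding near the genes was read from the authors' list of 7979 peaks. Tcfap2b was the only one of the 9 with a peak centre within 10 kb of an annotated start, beside 15.3% of 21573 genes with 1 place in the annotation. That gene lies on chromosome 1 (19198995 to 19228815, plus strand, mm9). The peak centre was 2.38 kb upstream of its nearest start, outside annotated genes, and its score of 12.7, the authors' value, is shared by 1088 peaks. As printed above, the peak holds an unbroken repeat of ATGT over 20 bases, which goes on with mismatches, and no octamer. Twist1 (chromosome 12, 34642536 to 34644682, plus strand) had its nearest peak 17.0 kb and Sox9 (chromosome 11, 112643538 to 112649074, plus strand) 26.5 kb downstream of a start, both outside annotated genes and with scores of 11.4. Within 50 kb these 3 genes had a peak, beside 34.6% of all genes, and within 100 kb 6 did, beside 51%. Within 2 kb 0 of the 9 had one, beside 9.6%. With the higher-scoring peaks alone, or with gene bodies and 10 kb around them, the count stayed at 1, beside 9.26% and 21.2% of all genes.

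The nearest peaks of Erbb3, Sox10 and Snai2 lay 64.4, 89.2 and 91.0 kb away, that of Sox10 in an exon of Eif3l and the other 2 over the bodies of Esyt1 and A630010A05Rik. For Tcfap2a, Ets1 and Snai1 the distances were 267, 549 and 569 kb, against a median of 96.7 kb for all genes. Tcfap2a thus had no peak of this list within 100 kb of a start. Whether peaks bear on the transcript levels of these genes was not tested. The share of genes with a nearer peak was 9.92% for Tcfap2b, 19.3% for Twist1 and 24.2% for Sox9.

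Motifs were searched as letters on both strands, and a match describes the sequence alone. The octamer ATGCAAAT occurs in the Sox9 peak and in 4.19% of the 7965 peaks on placed chromosomes, and the looser ATGCNAAT, which includes it, in 6.6%. The same octamer in the Sox9 peak forms part of the SOX-octamer composite, which Sox and Oct factors bind side by side, and the Sox9 peak was the only one of the 7965 with these letters. The composite was searched after that sequence had been read. The Twist1 peak, with 24.8% G and C, holds neither. In the RefSeq promoters, found for 4 of the 9 genes, 1 of 2 entries of Tfap2a holds ATGCTAAT, and 3.15% of all 32851 promoters hold ATGCNAAT. Promoters of Tfap2b, Snai1 and Twist1 hold none in their windows.

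**Figure D5:**
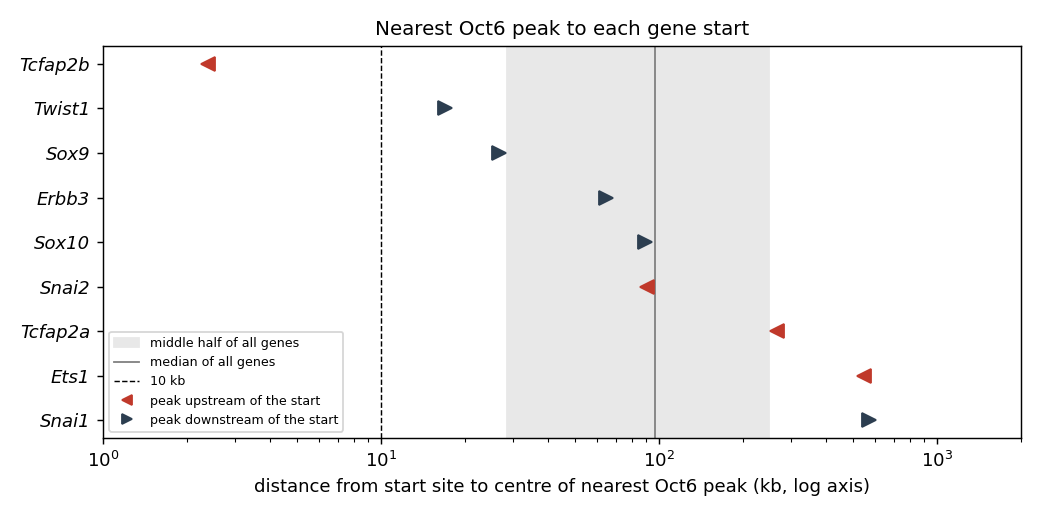
Distance from an annotated start of each gene to the centre of the nearest Oct6 peak (horizontal log axis, kb), with red triangles for peaks upstream and dark ones for peaks downstream. The shaded span covers the 25th to 75th percentile of all genes, 28.4 to 249 kb; Tcfap2b at 2.38 kb lies left of the dashed line at 10 kb.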

How the data were processed

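Groups and days came from the sample labels. The deposited values were FPKM per gene symbol and library; the submitters' processing notes name mm9, HOMER, Cuffdiff, Cufflinks 1.3.0 and TopHat 1.4.1, while their roles, strand handling and multi-mapped reads are not given in the sources used here. The peak list gives a position and a score per peak, both the authors' deposited values.

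Differences were taken on log2(FPKM + 1), which understates folds of low genes; changed meant a 2-fold difference with 1 FPKM or more in either library. limma 3.58.1 in R 4.3.3 (with an intensity trend, blocked by day, leaving 2 residual degrees of freedom) was fitted on the 13661 genes with 1 FPKM or more in at least 1 library, with Benjamini-Hochberg adjustment at 0.05 over all of them. A second fit took the interaction of arm and numeric day, with 1 residual degree of freedom. Fragment numbers are estimates from steps of low values and the longest annotated transcripts. Starts and gene bodies came from GENCODE on NCBIM37, the assembly of mm9; 14 peaks on other contigs were left out. Python 3.11.15, numpy 2.4.6, pandas 2.3.3, pysam 0.24.0 and matplotlib 3.10.9 were used.

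The 9 genes and the lists were chosen with earlier results of these data known. Named from each related list were up to 3 genes with the largest difference on any day, and for each of the 9 that reached 1 FPKM the 2 genes of highest Pearson r; other genes were named after their values were seen. The SOX-octamer composite, the repeat search, the fibroblast sum without Col1a2 and the ectoderm sum without Krt8 and Krt18 were added after seeing the data. Foxf1 and Map2 were matched to the table's Foxf1a and Mtap2 through RefSeq synonyms. Alternatives were a pseudocount of 0.1, no filter, median ratio scaling, quantile normalisation, a 1.5-fold threshold, each day left out, no day block and other peak distances. Some genes of the lists are not reported by name here.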

Additional observations from a re-analysis of the deposited data

Results flagged for a closer look

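Twist1 was at least 1.5-fold higher in induced cells on one day and at least 1.5-fold lower on another. In log2(FPKM + 1), its day 6 difference minus its day 2 difference was -2.73, and its day 6 difference minus its day 4 difference was -2.03. The straight trend of the difference with day had a limma adjusted p of 0.169, and the single steps were not tested, with 1 library per arm and day.

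Ets1 was likewise higher in induced cells at day 2 and lower at day 4, a change in the difference of -1.31. Its trend over the 3 days had a limma adjusted p of 0.464, and the step itself was not tested.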

How the results depend on the processing

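With a pseudocount of 0.1, 3 genes in place of 1 were at least 2-fold higher in induced cells at day 2 (Tcfap2a and Ets1 beside Twist1) and 2 in place of 1 at day 4 (Tcfap2a beside Twist1). With a 1.5-fold threshold 3 genes were higher at day 2, 2 higher and 3 lower at day 4, and 2 lower at day 6. The number of genes with a peak near a start was 0 within 2 kb, 3 within 50 kb and 6 within 100 kb, in place of 1 within 10 kb. The other 55 alternative counts, among them all under median ratio scaling, quantile normalisation and no filter, stayed within 1.5 times the reported one. Of the single values for the 9 genes 14 crossed the threshold for a call under an alternative, 275 did not, and none of the called ones changed sign. limma called 0 of the genes over the 3 days under each of 8 alternatives, with a smallest adjusted p among them between 0.123 with a pseudocount of 0.1 and 0.624 without day 4. The reported fit paired the arms by day, and without that block 0 were called. The steps of low values put Sox10, Tcfap2b in control cells, Snai2 at day 4 and Sox9 before day 6 on few fragments.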
